A study of Homo sapiens with 18 samples.

Results

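Interferon-stimulated genes are the genes that cells switch on when interferon reaches their surface. 40 of them were followed here, out of 56629 gene symbols counted, in 2 human melanoma cell lines with or without a CRISPR knockout of ARID2, a subunit of the PBAF chromatin-remodelling complex. The 40 were named as a list (STAT2, IRF1, IRF7 and IRF9, the IFIT, IFI, OAS, MX, SAMD9, HERC, GBP and PARP genes, the sensors DDX58 and IFIH1, and the immunoproteasome genes PSMB8 and PSMB9 among them), not by a value measured in these libraries. Earlier results of these data were known when the list was chosen. 36 of the 40 were abundant enough to test in SKmel147 and 29 in 501mel.

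SKmel147 carries NRAS Q61R, and its libraries came from 3 ARID2 knockout (KO) lines, KO3.20, KO1.4 and KO1.5, and from the control lines NT and Par. The KO and NT lines of SKmel147 had been stably infected with Lenti-Cas9 and a PLKO vector with a guide RNA, and Par carried neither. 501mel carries BRAF V600E, and its libraries came from KO5.2 and KO1.8, again with ARID2 targeted, and from the controls NTC and Par. In 501mel the KO and NTC lines had received Lenti-CRISPR V2, which holds Cas9 and the guide together, and Par had not. Each line had 2 libraries, made from polyadenylated RNA of cells grown in DMEM with 10% serum. The labels name no interferon treatment, and they do not say whether a line is a clone or a pool, or whether its libraries are separate cultures, so p-values measure the spread between libraries of a line, which may be technical.

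Interferons of types I and III bind receptors whose kinases, JAK1 and TYK2, phosphorylate transcription factors such as STAT2. STAT2 acts with IRF9 in a complex that binds a sequence called the interferon-stimulated response element (ISRE), while type II interferon acts through a second sequence, the gamma-activated site (GAS). The products of the target genes sense viral RNA, block its translation or destroy it, tag proteins with ISG15, and load peptides for display to T cells.

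Of 21 interferon ligand genes, 0 had enough reads to test in either cell line. In SKmel147 11 of them had any read, led by IFNE with 50 counts over 10 libraries and at most 12 in one, and in 501mel IFNA14 alone had a single read. ARID2 itself, whose RNA can persist after an edit, stood at 56.5 and 57 CPM in KO1.4, 55.4 and 46 in KO1.5, 39.8 and 46.8 in KO3.20, 66.9 and 62.3 in NT and 72.8 and 67.3 in Par of SKmel147, and its KO against control difference was -0.43 ± 0.08 on the log2 scale (SE; edgeR quasi-likelihood test, Benjamini-Hochberg adjusted p = 0.0039). It stood at 30.9 and 31.9 CPM in KO1.8, 19.8 and 21 in KO5.2, 40.9 and 43.2 in NTC and 43.1 and 40.9 in Par of 501mel, a difference of -0.73 ± 0.05 (edgeR adjusted p = 3.74e-08). ARID2 was lower in every KO library than in every control library of its own cell line, though KO1.4 alone was not called (-0.25 ± 0.11, edgeR adjusted p = 0.228). Library totals ran from 21266522 to 35670140 counts in SKmel147 and from 16749707 to 20606855 in 501mel. Levels are in CPM, the count scaled to library size with TMM factors.

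Melanocytic markers were high in 501mel and mostly near 0 in SKmel147. The summed level of 8 melanocytic markers was 6874 and 6983 CPM in KO5.2, 9039 and 9583 CPM in KO1.8 and 9211 to 9795 CPM in the 501mel controls. In SKmel147 it was 165.6 to 263.3 CPM, nearly all from SOX10, and DCT, MLANA, PMEL, TYR and S100B did not exceed 1.46 CPM in any library. The summed leukocyte markers stayed at or below 1.71 CPM in every library, with the pan-leukocyte gene PTPRC at 0 in 501mel and at most 0.112 CPM in SKmel147. The summed fibroblast markers were 12.9 to 18.4 CPM in SKmel147 KO libraries and 9.36 to 11.6 CPM in SKmel147 controls, with DCN at 0 in all of them. COL1A1 was called higher there (1.67 ± 0.21, edgeR adjusted p = 0.000271) and LUM was not called (0.05, edgeR adjusted p = 0.858). Of the melanocytic markers in 501mel KO lines, TYRP1 stood at 980.5 to 3743 CPM in KO libraries, against 3157 to 4497 CPM in controls (-0.99 ± 0.04, edgeR adjusted p = 1.4e-10). TYR and S100B were also called lower (-0.12 and -0.62), DCT higher (0.41), and PMEL, SOX10, MITF and MLANA were not called. The part of the lower melanocytic sum of KO5.2 and of the higher fibroblast sum of SKmel147 KO lines in the results was not tested.

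Most of the members with a known promoter share a sequence there, which their choice did not use here. RefSeq (build GRCh38.p14) held a promoter, 250 bases before to 50 after the gene's start, for 33 of the 40. The ISRE core was searched as GAAA, any 2 bases and GAAA again, on both strands (TTTC, any 2 bases and TTTC on the other). GAS was searched as TTC, any 3 bases and GAA, which is its own reverse complement, and the motifs can share bases. The ISRE core was in the promoters of 22 of the 33 members (66.7%) and of 1195 of all 27305 genes with a promoter (4.38%). GAS was in those of 11 members (33.3%) and 2560 genes (9.38%). 7 members held both motifs, 15 the ISRE core alone, 4 GAS alone (IFI35, IRF1, IRF9 and OAS1), and 7 neither (CMPK2, DDX58, HERC6, PSMB9, SAMD9L, STAT2 and XAF1). These are matches of letters, not binding sites.

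The 160 bases before the start are shown for 6 members whose KO values stood outside both control lines or that differed most between the cell lines, 5′ to 3′ on the gene's strand, with ISRE cores in capitals. IFIH1 lies at chr2:162318685-162318844 (minus strand), SAMD9 at chr7:93117980-93118139 (minus), IFI44 at chr1:78649629-78649788 (plus), DDX60 at chr4:168318753-168318912 (minus), ISG20 at chr15:88638856-88639015 (plus) and GBP1 at chr1:89065209-89065368 (minus).
IFIH1: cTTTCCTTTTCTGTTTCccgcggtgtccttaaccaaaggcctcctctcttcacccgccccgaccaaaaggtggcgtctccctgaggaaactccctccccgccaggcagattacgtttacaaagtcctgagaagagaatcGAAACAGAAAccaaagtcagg
SAMD9: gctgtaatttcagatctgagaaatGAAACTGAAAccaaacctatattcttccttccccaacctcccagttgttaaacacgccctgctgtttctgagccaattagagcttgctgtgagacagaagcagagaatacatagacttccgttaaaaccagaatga
IFI44: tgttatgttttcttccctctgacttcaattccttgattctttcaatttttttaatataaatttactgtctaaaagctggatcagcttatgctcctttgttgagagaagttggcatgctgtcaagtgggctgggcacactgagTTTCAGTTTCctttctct
DDX60: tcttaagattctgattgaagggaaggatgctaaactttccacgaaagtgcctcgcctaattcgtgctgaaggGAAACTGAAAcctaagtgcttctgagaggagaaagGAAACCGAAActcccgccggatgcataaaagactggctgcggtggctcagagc
ISG20: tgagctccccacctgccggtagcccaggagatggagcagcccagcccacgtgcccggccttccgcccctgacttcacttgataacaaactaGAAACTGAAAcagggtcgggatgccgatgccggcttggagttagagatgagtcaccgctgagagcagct
GBP1: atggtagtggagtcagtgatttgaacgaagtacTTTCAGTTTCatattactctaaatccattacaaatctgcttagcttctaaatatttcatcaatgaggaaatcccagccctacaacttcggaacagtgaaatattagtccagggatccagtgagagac
IFIH1 has 3 matches, of which 2 overlap at its far end, starting 159 and 153 bases before the gene's start, and the third starts 21 bases before it. IFI44 has its single match 18 bases before the start used here, and the same match lies at -60 from its other RefSeq start. DDX60 has 2 matches. The same core stands in members that were higher in KO lines (IFIH1, ISG20) and lower (SAMD9, IFI44, DDX60, GBP1), as given below. All the members shown hold the core, but not all members of that kind do. SAMD9L in SKmel147 and STAT2 and DDX58 in 501mel also had KO lines below both control lines, and they held neither motif.

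Per kilobase of exon, the members spanned a wide range of levels. In SKmel147 controls the immunoproteasome subunits were at the top, PSMB8 at 56.2 RPKM and PSMB9 at 16.1 RPKM, then IFI44, of unclear function, at 13.0 RPKM. PARP14, a mono-ADP-ribosyltransferase, followed at 5.80 RPKM and the transcription factor STAT2 at 5.51 RPKM. In 501mel controls IFI6, a mitochondrial survival protein, was at 30.1 RPKM, PSMB8 at 28.4, STAT2 at 12.1, IFI35 at 8.66 and PSMB9 at 8.06 RPKM. The 4 members not tested in SKmel147 had 30 (OASL), 2 (XAF1), 6 (BST2) and 55 (HERC5) counts over all 10 libraries. The 11 not tested in 501mel had 0 to 32 counts over all 8, with RSAD2, XAF1 and CMPK2 at 0, IFI44L at 2, GBP1 at 4, SAMD9L at 6, EPSTI1 and MX2 at 9, GBP2 at 13, OASL at 21 and BST2 at 32.

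**Figure D1:**
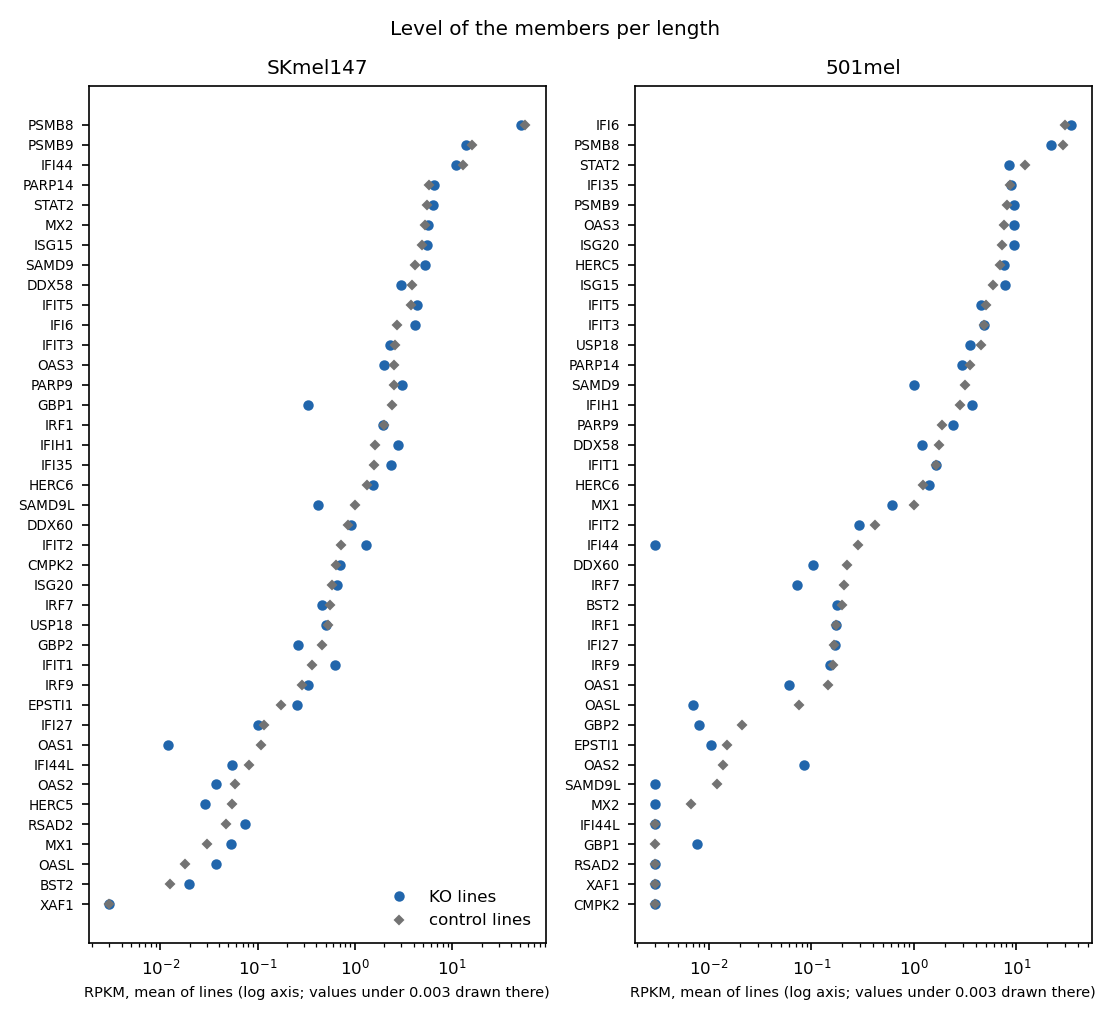
Level of each of the 40 members per length (RPKM, log axis), as the mean of the KO lines (circles) and of the control lines (diamonds), in SKmel147 (left) and 501mel (right), ordered by the control level; values under 0.003 are drawn at 0.003. PSMB8 leads in SKmel147 at 56.2 RPKM and IFI6 in 501mel at 30.1 RPKM, and the lowest members of each panel sit near or at 0.

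The control lines of the cell lines differed in most members, in a joint fit of tables that were counted separately. 20 of 36 members were called higher in SKmel147 controls and 12 lower (background 80.7% of 19518 genes called, 43.1% higher and 37.6% lower), so 32 of 36 is close to what all genes did. MX2 and GBP1 were at 55.1 to 79.6 CPM and at 5.01 to 21.1 CPM in SKmel147 controls, and both were at or near 0 in 501mel controls. The gap ran the other way for MX1, a GTPase that blocks viral replication (-4.90 ± 0.27, edgeR adjusted p = 2.53e-11), and for ISG20, an exonuclease (-3.69 ± 0.15, edgeR adjusted p = 3e-13). MX1 and ISG20 were thus lower in SKmel147 controls than in 501mel controls.

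In SKmel147 KO lines, 6 of 36 members rose and 5 fell against the 2 control lines (background 17.7% of 18361 genes called, 8.07% higher and 9.6% lower). The 6 were the RNA sensor IFIH1, the translation inhibitors IFIT1 and IFIT2, and IFI6, IFI35 and PARP9. The 5 were the guanylate-binding GTPases GBP1 and GBP2, SAMD9L, the RNase L activator OAS1, and IFI44L. 3 of the 36 reached the limit for low counts on 1 side alone, OAS1 and OAS2 in the controls and RSAD2 in KO lines, and a gene that enters that way tends to differ. Among the other 33 members, 6 rose and 4 fell, beside 17.9% of all genes that reached it on both sides (8.3% higher and 9.63% lower), with a median of 0.16. The count of 11 was 7 without NT replicate 1, KO1.5 replicate 2 or either KO3.20 replicate. RNA was taken from whole cultures, in which fewer cells with a transcript and less of it per cell cannot be told apart. The median difference of the 36 was 0.13 on the log2 scale, beside -0.01 over all genes tested, and 21 of 36 were above 0, beside 48.3% of all genes.

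The control lines of SKmel147 differed from each other as well. 12 of 36 members were lower in NT than in Par and 1 was higher (background 9.27% called, 5.45% lower and 3.82% higher). The 12 were the sensor DDX58, the GTPases GBP1, GBP2 and MX2, OAS1, OAS3, IFIT3, IFI44, IRF1, ISG20, PSMB8 and PSMB9, and the 1 was RSAD2. OAS1 reached the limit for low counts in Par and not in NT, and RSAD2 in neither. Among the 31 members that reached it in both lines, 11 were lower and 0 higher (background 9.88%, 5.83% lower and 4.05% higher). The count of 13 was 5 without NT replicate 1 or Par replicate 2, and 8 without NT replicate 2 or Par replicate 1. OAS3, GBP1 and IFIT3 were called without any 1 library, while ISG20, MX2 and PSMB8 lost their calls without any 1 of 8 of the 10. Their median was -0.60, beside 0.00 over all genes, and 4 of 36 were above 0, beside 50.2% of all genes. NT held the lowest level of the 5 lines for 21 of 36 members, beside 21.7% of all genes, and the highest for 0. Across 15383 genes NT against Par also ran with GC content (Spearman -0.405), and the members' median GC was 46.6%, beside 47.7% over all. With a correction for GC content and length 16 members were lower and 1 higher. No share of all genes under that correction is given here, so a general rise in calls cannot be told apart. Against Par alone 10 members were lower and 4 higher in KO lines (background 19.8%, 11.7% lower and 8.01% higher), and against NT alone 2 were lower and 6 higher (background 11.3%, 6.08% lower and 5.22% higher). These 2 comparisons share the KO libraries, and both share control libraries with the main one. Of the members called against Par, OAS1 reached the limit for low counts in Par alone and RSAD2 in KO lines alone. Among the 32 members that reached it on both sides there, 9 were lower and 3 higher (background 20.8%, 12.3% lower and 8.42% higher). Against NT it was 2 lower and 6 higher of 31 (background 11.8%, 6.32% lower and 5.51% higher).

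**Figure D2:**
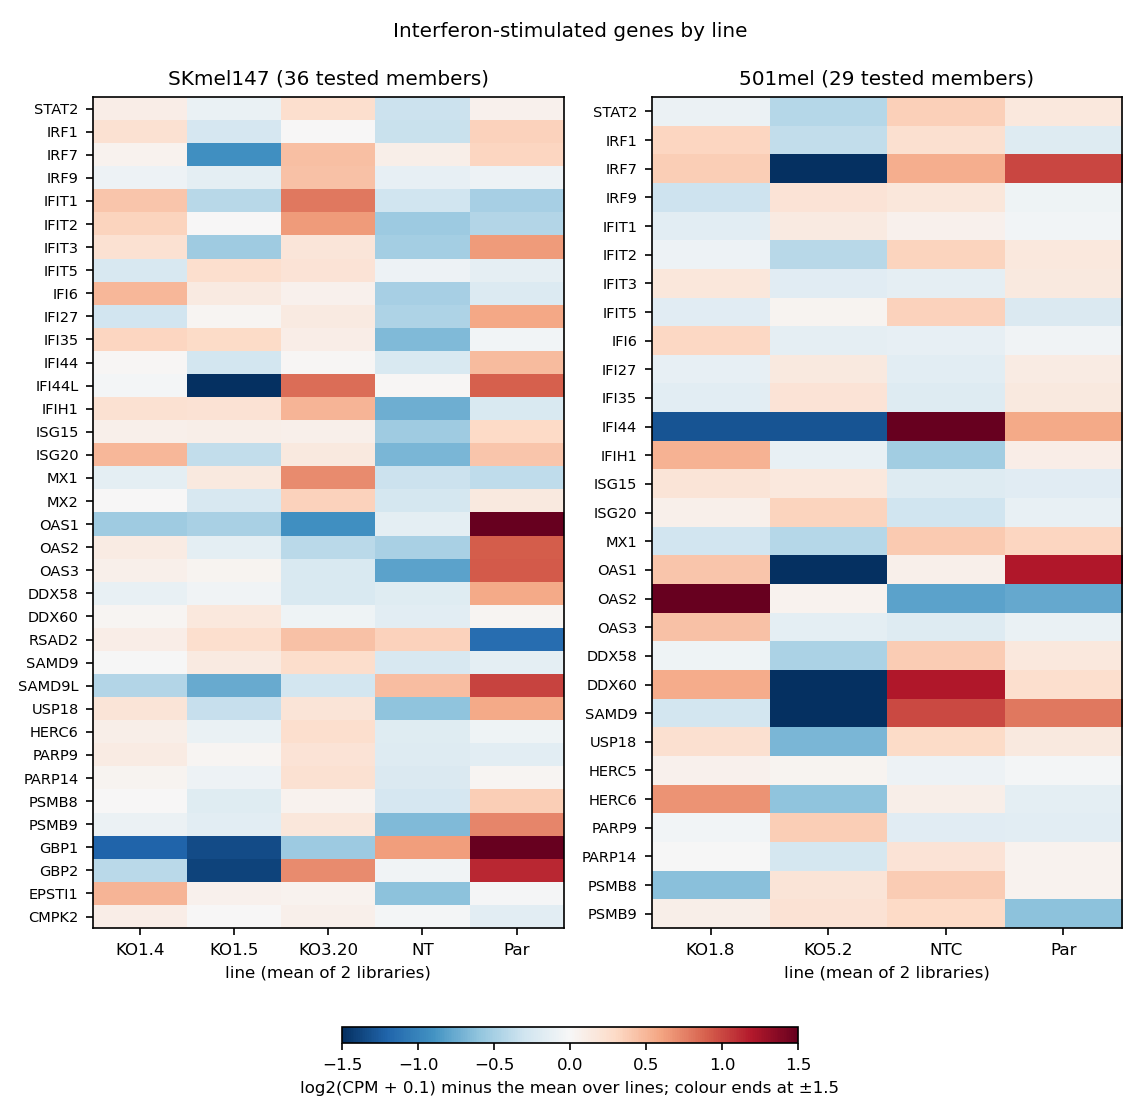
Level of each tested member in each line (colour: log2(CPM + 0.1) minus the mean over the lines of that cell line, colours ending at 1.5 either way; each cell is the mean of 2 libraries), for SKmel147 (left, 36 members) and 501mel (right, 29 members). NT holds the lowest value for 21 of 36 members in SKmel147, and KO5.2 for 14 of 29 in 501mel.

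**Figure D3:**
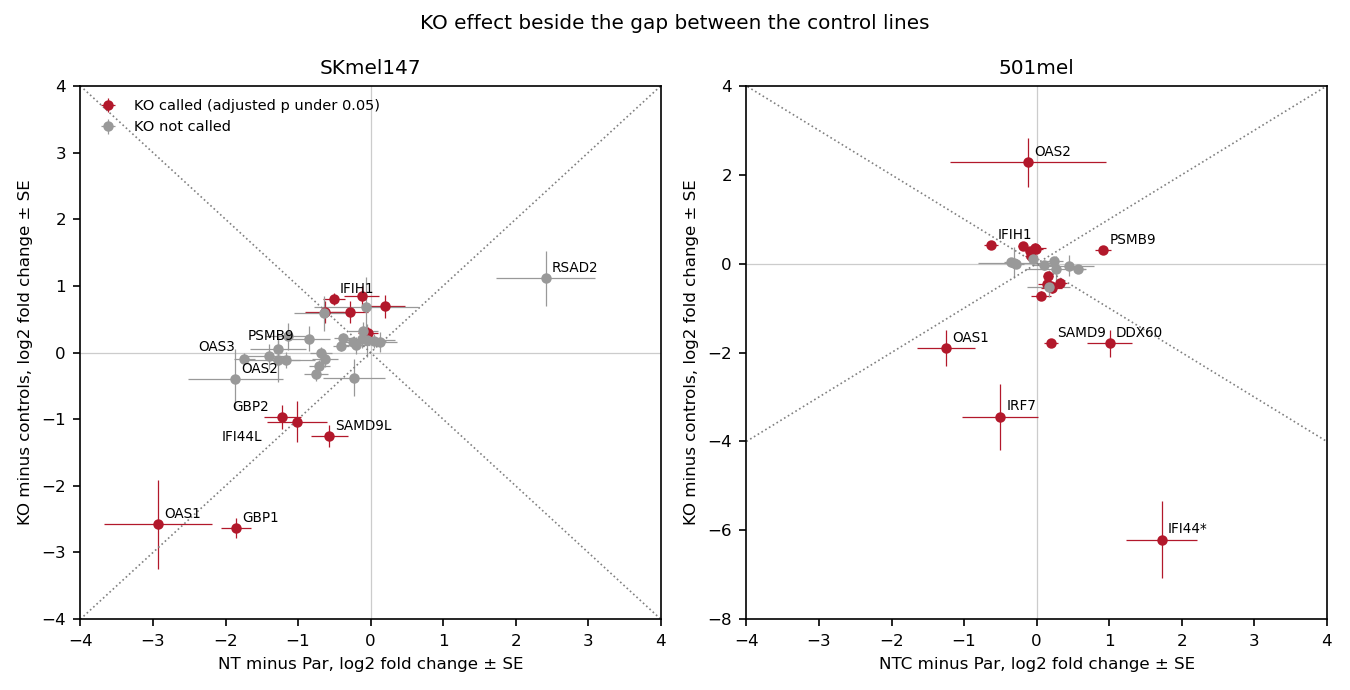
KO effect (vertical axis, log2 fold change ± SE) against the gap between the control lines (horizontal axis, NT or NTC minus Par, log2 fold change ± SE) for each tested member; dotted lines mark effects of equal size. In SKmel147 most points lie left of 0, and 15 of 36 members had a KO effect larger in size than the gap; in 501mel 19 of 29 did.

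By size alone, with no test, 15 of 36 members in SKmel147 had a KO effect larger than the control gap, 11 upward and 4 downward (background 38.8%, 18.7% upward and 20.1% downward). 4 members were outside both controls by test, IFIH1 and IFIT2 higher and GBP1 and SAMD9L lower, called with 1 sign against Par alone and NT alone (background 5.33%, 2.19% higher and 3.14% lower), 2 without Par replicate 2. The same 4 had KO libraries that did not overlap the control libraries (background 8.58%, 4% higher and 4.59% lower). 3 of the 4, IFIH1 higher and GBP1 and SAMD9L lower, were also called in every KO line with 1 sign (background 3.39%, 1.58% higher and 1.8% lower). These 3 are the ones that also passed when the line was treated as a random block in limma-voom, described with the limits below.

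Among the sensors, IFIH1 (MDA5), which binds long double-stranded RNA in the cytoplasm, stood at 12.5 and 13.8 CPM in KO1.4, 12.3 and 13.7 in KO1.5, 15.8 and 16.3 in KO3.20, 6.28 and 7.17 in NT and 9.9 and 9.21 in Par. Every KO library was above every control library, and NT was the lowest line. The KO difference was 0.80 ± 0.10 (edgeR adjusted p = 0.000197), with 1.06 against NT alone and 0.55 against Par alone, and the NT against Par gap was -0.51 ± 0.15 (edgeR adjusted p = 0.0558). DDX58 (RIG-I), the sensor of short RNA ends, did not pass in the KO comparison (-0.32 ± 0.11, edgeR adjusted p = 0.0614). DDX58 was lower in NT than in Par (-0.76 ± 0.17, edgeR adjusted p = 0.0186), a call lost without NT replicate 2 (-0.63, edgeR adjusted p = 0.0669) or Par replicate 1 (-0.52, edgeR adjusted p = 0.0678). DDX60, a helicase linked to RNA sensing, was at 0.11 and was not called.

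Of the IFIT proteins, which bind foreign RNA caps and hold back translation, IFIT2 stood at 4.49 and 6.12 CPM in KO1.4, 4.53 and 3.89 in KO1.5, 6.67 and 6.44 in KO3.20, 2.44 and 3.21 in NT and 3.4 and 2.71 in Par. All KO libraries were above all controls, and the control lines overlapped each other. The difference was 0.84 ± 0.15 (edgeR adjusted p = 0.00274), beside an NT against Par gap of -0.12. IFIT1, its partner, stood at 2.83 and 3.16 CPM in KO1.4, 1.98 and 1.28 in KO1.5, 4.01 and 3.82 in KO3.20, 1.73 and 1.84 in NT and 1.54 and 1.55 in Par. KO1.4 and KO3.20 were above the controls and KO1.5 overlapped them. The mean difference was 0.69 ± 0.17 (edgeR adjusted p = 0.0143), and KO1.5 alone was at -0.01. IFIT3 was not called in the KO comparison (-0.11) while NT was lower than Par (-1.16 ± 0.19, edgeR adjusted p = 0.00432). IFIT5 was at 0.18 and was not called.

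GBP1, a GTPase that coats vacuoles of intracellular pathogens, had the largest called difference between KO and control lines in SKmel147 among members that reached the limit for low counts on both sides. It stood at 1.32 and 1.44 CPM in KO1.4, 1.48 and 1.03 in KO1.5 and 2.51 and 1.99 in KO3.20, against 5.33 and 5.01 in NT and 21.1 and 16.3 in Par. The 3 KO lines were below NT and NT was below Par, with no overlap anywhere in that order. The difference was -2.63 ± 0.15 (edgeR adjusted p = 5.92e-07), -1.71 against NT and -3.56 against Par, while NT against Par was -1.86 ± 0.21 (edgeR adjusted p = 0.000473). Its relative GBP2 stood at 1.56 and 1.07 CPM in KO1.4, 0.681 and 0.55 in KO1.5, 2.97 and 2.92 in KO3.20, 1.9 and 1.51 in NT and 3.76 and 4.22 in Par. KO1.5 was the lowest line and KO3.20 lay between the controls. The mean difference of GBP2 was -0.97 ± 0.17 (edgeR adjusted p = 0.00269), and without KO1.5 it was -0.41 (edgeR adjusted p = 0.184).

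SAMD9L, which restrains translation and cell growth, stood at 2.5 and 3.61 CPM in KO1.4, 2.69 and 2.2 in KO1.5, 3.06 and 3.82 in KO3.20, 5.09 and 6.52 in NT and 10.2 and 6.88 in Par. Its KO libraries were all below its control libraries. The difference was -1.25 ± 0.17 (edgeR adjusted p = 0.000401), and its control gap was -0.57 (edgeR adjusted p = 0.176). Its neighbour and homologue SAMD9 was at 28.9 and 36 CPM in KO1.4, 38.3 and 33.5 in KO1.5, 37 and 41.2 in KO3.20, 28.9 and 26 in NT and 36.8 and 21.9 in Par, overlapping, with a difference of 0.33 ± 0.14 (edgeR adjusted p = 0.123). The pair therefore gave one call and one difference of the other sign that did not pass, and a test between the 2 genes was not made.

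In the oligoadenylate synthetase family, whose product activates RNase L, OAS3 took a sign that depended on the control line. It stood at 18.4 and 17.2 CPM in KO1.4, 16.6 and 18.1 in KO1.5, 14.7 and 13.9 in KO3.20, 8.93 and 10.3 in NT and 35.1 and 28.9 in Par, so all KO libraries lay between NT and Par. The mean difference was -0.10 (edgeR adjusted p = 0.534), but it was 0.77 against NT alone (edgeR adjusted p = 0.00199) and -0.97 against Par alone (edgeR adjusted p = 0.000158), 2 calls of opposite sign. NT against Par was -1.74 ± 0.15 (edgeR adjusted p = 8.73e-05).

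OAS1 was scarce at 0.142 and 0 CPM in KO1.4, 0.118 and 0.0367 in KO1.5, 0.0611 and 0 in KO3.20, 0.102 and 0.144 in NT and 1.01 and 0.903 in Par. Only Par stood apart, and the KO libraries overlapped NT. OAS1 passed the limit for low counts through Par alone, so its values are given with no test, and its call was lost without any 1 of NT replicate 1, NT replicate 2 and KO3.20 replicate 2. OAS2 was not called (-0.39).

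RSAD2 (viperin), which makes a chain-terminating nucleotide, was the 1 member called higher in NT than in Par. It reached the limit for low counts in neither of these lines, so its values are given with no test. It stood at 0.236 and 0.378 CPM in KO1.4, 0.444 and 0.257 in KO1.5, 0.397 and 0.432 in KO3.20, 0.475 and 0.288 in NT and 0.0561 and 0.086 in Par, with Par below the rest. That call was lost without any 1 of the 10 libraries. In the KO comparison RSAD2 reached the limit in KO lines alone and was not called (1.11).

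The immunoproteasome subunits PSMB8 and PSMB9, which reshape the peptides shown to T cells, were not called in SKmel147 KO lines. PSMB9 stood at 42.8 and 38.6 CPM in KO1.4, 34.8 and 42.8 in KO1.5, 45.4 and 52.2 in KO3.20, 19.7 and 34.7 in NT and 48.9 and 95.1 in Par, with Par replicate 2 far above the other 9 libraries. Its KO difference was -0.05 (edgeR adjusted p = 0.878), and its NT against Par gap was -1.4 ± 0.30 (edgeR adjusted p = 0.0144), which was -0.86 without Par replicate 2 (edgeR adjusted p = 0.0881) and -1.05 without NT replicate 1 (edgeR adjusted p = 0.109). PSMB8 was at -0.10 between KO and control lines.

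None of the transcription factors STAT2, IRF1, IRF7 and IRF9 was called between KO and control lines in SKmel147. STAT2 stood at 42 and 36.5 CPM in KO1.4, 32.1 and 36.1 in KO1.5, 45.9 and 40.8 in KO3.20, 28.4 and 30.1 in NT and 37.9 and 38.3 in Par, where NT was lowest and the KO libraries spanned Par, and its difference was 0.21 ± 0.08 (edgeR adjusted p = 0.0953). IRF1, an early target of type II interferon, stood at 18.2 and 17.5 CPM in KO1.4, 12.7 and 12.7 in KO1.5, 16.4 and 14.2 in KO3.20, 11 and 13 in NT and 17.3 and 21.4 in Par, with a KO difference of -0.01 (edgeR adjusted p = 0.964). IRF1 was lower in NT than in Par (-0.68 ± 0.15, edgeR adjusted p = 0.0199), a call lost without NT replicate 1 (-0.57, edgeR adjusted p = 0.146) or Par replicate 2 (-0.54, edgeR adjusted p = 0.0971).

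IRF7, which amplifies interferon production, was low, at 1.46 and 1.1 CPM in KO1.4, 0.444 and 0.77 in KO1.5, 2.26 and 1.2 in KO3.20, 1.05 and 1.58 in NT and 1.12 and 2.02 in Par, and its libraries overlapped (-0.38 ± 0.28, edgeR adjusted p = 0.405). IRF9, the DNA-binding partner of STAT2, was at 1.46 and 0.722 CPM in KO1.4, 1.15 and 0.916 in KO1.5, 1.62 and 1.59 in KO3.20, 0.848 and 1.26 in NT and 0.982 and 1.2 in Par, also overlapping (0.18 ± 0.24, edgeR adjusted p = 0.66).

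The remaining calls in SKmel147 were thinner. IFI6 (0.61 ± 0.16, edgeR adjusted p = 0.0253) lost its call without any 1 of 6 of the 10 libraries, at 0.48 to 0.62. IFI35 (0.61 ± 0.17, edgeR adjusted p = 0.0279) lost it without any 1 of 5, at 0.49 to 0.58. IFI44L (-1.04 ± 0.31, edgeR adjusted p = 0.0359) lost it without any 1 of 8, at -1.17 to -0.80. It was -0.07 without KO1.5, the line at 0.118 and 0.0733 CPM beside 0.519 and 0.55 in KO1.4 and 0.887 and 1.23 in KO3.20. PARP9, a partner of the ubiquitin ligase DTX3L (0.29 ± 0.09, edgeR adjusted p = 0.0433), lost it without any 1 of 9, at 0.21 to 0.33. The other 25 tested members were not called and ran from -0.39 (OAS2) to 1.11 (RSAD2).

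Between the KO lines of SKmel147, members differed in 1 pair. KO1.5 against KO1.4 and KO3.20 against KO1.4 had 0 calls each among 36 (background 2.17%, 1.18% higher and 0.991% lower, for the first pair and 1.9%, 1.22% higher and 0.675% lower, for the second). KO3.20 was higher than KO1.5 in 5 members and lower in 0 (background 5.25%, 3.01% higher and 2.24% lower), with a median of 0.30 over the 36. They were GBP2 (2.24 ± 0.29, edgeR adjusted p = 0.00115), IFIT1 (1.25 ± 0.25, edgeR adjusted p = 0.0142), IFIT3 (0.73 ± 0.19, edgeR adjusted p = 0.0476), the nuclear-pore GTPase MX2 (0.58 ± 0.11, edgeR adjusted p = 0.00934) and IFI44L. IFI44L reached the limit for low counts in KO3.20 alone, so no test is given for it in this pair. Among the 31 members that reached it in both lines, 4 were higher and 0 lower (background 5.23%, 2.89% higher and 2.34% lower). Over all 36, there was 1 call without KO1.5 replicate 2, 2 calls without either KO3.20 replicate, and 3 calls without KO1.5 replicate 1. Against the controls, KO1.4 had 4 members higher and 3 lower (background 8.77%, 3.97% higher and 4.8% lower), KO1.5 1 higher and 5 lower (background 11.2%, 5.42% higher and 5.77% lower), and KO3.20 5 higher and 2 lower (background 12.6%, 6.49% higher and 6.11% lower). Of the lower members of KO1.5, IFI44L reached the limit in the controls alone. Among the 31 that reached it on both sides, KO1.5 had 1 higher and 4 lower (background 11.3%, 5.82% higher and 5.49% lower).

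**Figure D4:**
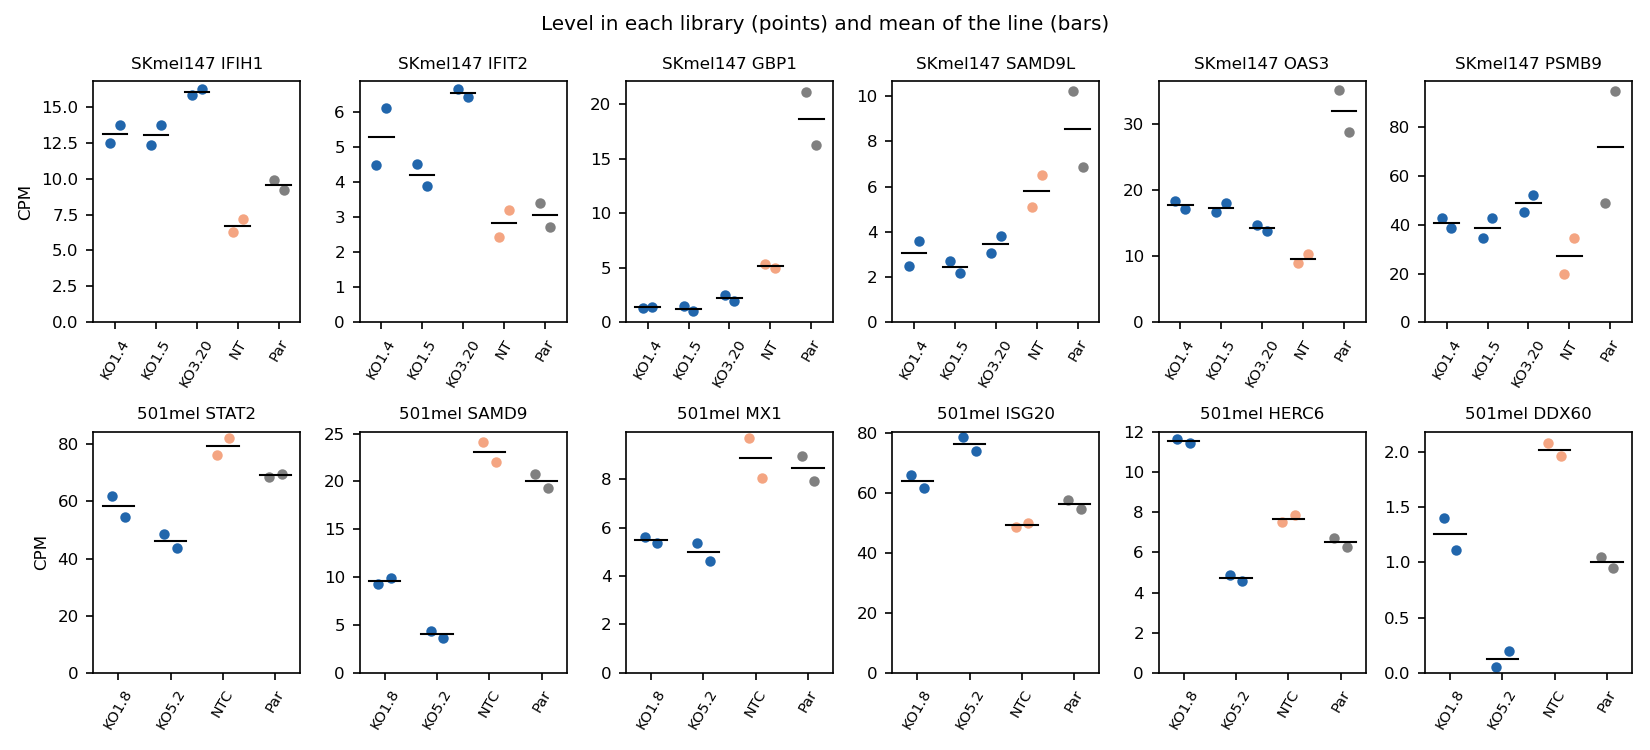
CPM of 12 members in every library (points; bars are the mean of a line's 2 libraries; all axes start at 0), for SKmel147 IFIH1, IFIT2, GBP1, SAMD9L, OAS3 and PSMB9 (top) and 501mel STAT2, SAMD9, MX1, ISG20, HERC6 and DDX60 (bottom). IFIH1 and IFIT2 are above, and GBP1 and SAMD9L below, all control libraries in SKmel147, while OAS3 lies between NT and Par; in 501mel HERC6 is highest in KO1.8 and lowest in KO5.2.

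In 501mel, 8 of 29 members rose and 11 fell in KO lines against the controls (background 51.3% of 16230 genes called, 24.7% higher and 26.5% lower). The members higher were ISG20, ISG15, OAS2, OAS3, IFIH1, PARP9, PSMB9 and IFI6. The members lower were STAT2, IRF7, SAMD9, IFI44, MX1, DDX58, DDX60, OAS1, USP18, PARP14 and PSMB8. IFI44 and IRF7 reached the limit for low counts in the controls alone and OAS2 in KO lines alone. Among the other 26 members, 7 rose and 9 fell, beside 52.1% of all genes that reached it on both sides (25.7% higher and 26.4% lower). The share of members higher is close to the background of all genes, and the share lower is above it by a few genes. The median over the members was -0.05, beside -0.01 over all genes. NTC against Par called 5 members higher and 3 lower (background 15.7%, 6.77% higher and 8.93% lower), with a median of 0.10. That count of 8 was 3 without replicate 1 of NTC or of Par, and 4 without replicate 2 of either. In this gap IFI44 reached the limit for low counts in NTC alone and OAS1 in Par alone. Among the 24 members that reached it in both NTC and Par, 4 were higher and 2 lower (background 15.9%, 7.15% higher and 8.79% lower). 19 of 29 members had a KO effect larger in size than that gap, 7 upward and 12 downward (background 61.1%, 28.4% upward and 32.7% downward). Against Par alone 5 members were higher and 11 lower (background 39%, 18.1% higher and 20.9% lower), and against NTC alone 7 were higher and 11 lower (background 49.6%, 23.9% higher and 25.7% lower). Among the 25 members that reached the limit on both sides against Par, 4 were higher and 9 lower (background 40.6%, 19.3% higher and 21.4% lower). Against NTC it was 6 higher and 9 lower of 25 (background 51.1%, 24.8% higher and 26.3% lower). 14 members were called with 1 sign against each control alone, 4 higher and 10 lower (background 30.4%, 14.2% higher and 16.2% lower), 9 without Par replicate 1. 7 were called in both KO lines with 1 sign, 2 higher and 5 lower (background 24%, 12.3% higher and 11.7% lower). 9 did not overlap between KO and control libraries, 3 higher and 6 lower (background 27.1%, 13.2% higher and 13.9% lower). The 14 include IFI44, IRF7 and OAS2, the 7 include IFI44, and the 9 include IFI44 and OAS2. These genes did not reach the limit for low counts on both sides, and no count without them was made for these 3 rules.

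STAT2, the transactivating arm of the type I interferon complex, fell. It stood at 62.1 and 54.7 CPM in KO1.8, 48.6 and 43.7 in KO5.2, 76.2 and 82.4 in NTC and 68.4 and 69.7 in Par, so every KO library was below every control library and KO5.2 was lowest. The difference was -0.51 ± 0.05 (edgeR adjusted p = 1.98e-06), beside a control gap of 0.20. IRF9 (0.572 and 0.338 CPM in KO1.8, 0.578 and 0.804 in KO5.2, 0.654 and 0.687 in NTC and 0.527 and 0.591 in Par) and IRF1 (1.77 and 1.6 CPM in KO1.8, 1.31 and 0.704 in KO5.2, 1.84 and 1.32 in NTC and 1.29 and 1.01 in Par) were low and overlapped, at -0.13 and -0.05. IRF7 stood at 0.52 and 0.242 CPM in KO1.8, 0 and 0 in KO5.2, 0.297 and 0.589 in NTC and 0.82 and 0.473 in Par, where both KO5.2 libraries had no read, a level at least 7.11-fold below the controls (floor of 3 counts over the 2 libraries). IRF7 entered through the controls, so no test is given for the mean of the KO lines, and without KO5.2 it was at -0.52 (edgeR adjusted p = 0.429).

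SAMD9 had the smallest p of all members in 501mel. It stood at 9.26 and 9.86 CPM in KO1.8 and 4.41 and 3.67 in KO5.2, against 24.1 and 22 in NTC and 20.8 and 19.3 in Par. The 2 KO lines did not overlap each other, and both were below all controls. The difference was -1.79 ± 0.08 (edgeR adjusted p = 3.66e-10), beside a control gap of 0.20. SAMD9L could not be tested, with 6 counts in all.

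IFI44 had no read in any of the 4 KO libraries of 501mel, against levels of 1.01 and 0.785 in NTC and 0.293 and 0.237 in Par, in CPM. It was at least 15.5-fold lower in KO libraries (floor of 3 counts over the group). It passed the limit for low counts through NTC alone, so no test is given for it. NTC was above Par in these libraries.

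MX1 stood at 5.62 and 5.37 CPM in KO1.8 and 5.36 and 4.63 in KO5.2, against 9.69 and 8.04 in NTC and 8.96 and 7.92 in Par. All KO libraries were below all controls, and the KO lines lay close together (-0.72 ± 0.11, edgeR adjusted p = 4.9e-05). The sensor DDX58 stood at 6.04 and 5.9 CPM in KO1.8, 3.99 and 4.93 in KO5.2, 8.74 and 7.5 in NTC and 7.08 and 6.92 in Par, lower in all KO libraries than in any control (-0.54 ± 0.11, edgeR adjusted p = 0.000594). The second sensor moved the other way: IFIH1 stood at 23.8 and 22.4 CPM in KO1.8, 15.4 and 14.5 in KO5.2, 11.5 and 11 in NTC and 16.7 and 17.9 in Par. KO1.8 was above both controls, and KO5.2 was above NTC and below Par. Its mean difference was 0.42 ± 0.07 (edgeR adjusted p = 0.000105), but 0.10 against Par alone (edgeR adjusted p = 0.326), and without KO1.8 it was 0.10 (edgeR adjusted p = 0.346). NTC was lower than Par in IFIH1 (-0.62 ± 0.10, edgeR adjusted p = 0.000604).

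DDX60 stood at 1.4 and 1.11 CPM in KO1.8, 0.0525 and 0.201 in KO5.2, 2.08 and 1.96 in NTC and 1.05 and 0.946 in Par. KO5.2 was far below the rest, while KO1.8 lay between Par and NTC. Its difference was -1.79 ± 0.30 (edgeR adjusted p = 0.000191), and -0.18 without KO5.2 (edgeR adjusted p = 0.615). NTC was above Par (1.01 ± 0.31, edgeR adjusted p = 0.0398), a call lost without any 1 of the 4 control libraries, at 0.93 to 1.09.

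The exonuclease ISG20 was called higher in each 501mel KO line and against each control line alone. It stood at 66.1 and 61.8 CPM in KO1.8, 79 and 74.2 in KO5.2, 48.6 and 49.9 in NTC and 57.9 and 54.7 in Par. All KO libraries were above all controls, KO5.2 the most (0.41 ± 0.05, edgeR adjusted p = 4.01e-06). ISG15, the ubiquitin-like tag, rose by a similar amount (0.36 ± 0.11, edgeR adjusted p = 0.0113), a call lost without KO5.2 replicate 1 (0.29, edgeR adjusted p = 0.0608). Its removing enzyme USP18 fell (-0.45 ± 0.09, edgeR adjusted p = 0.000612), though without KO5.2 it was at 0.020, and reads of USP18 may be shared with its near-identical copy. Of the ISG15 ligases, HERC5 was not called (0.10).

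HERC6 was called with opposite signs in the KO lines. It stood at 11.7 and 11.5 CPM in KO1.8, 4.89 and 4.57 in KO5.2, 7.49 and 7.85 in NTC and 6.73 and 6.27 in Par, highest in KO1.8 and lowest in KO5.2, with all controls between. Against the controls KO1.8 was at 0.71 ± 0.10 (edgeR adjusted p = 6e-05) and KO5.2 at -0.58 ± 0.12 (edgeR adjusted p = 0.000872), so that their mean was 0.06 (edgeR adjusted p = 0.583).

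Of the synthetases, OAS1 stood at 0.572 and 0.532 CPM in KO1.8, 0.0525 and 0.0503 in KO5.2, 0.297 and 0.539 in NTC and 1.05 and 1.01 in Par, where KO5.2 was lowest and KO1.8 overlapped NTC. It fell (-1.90 ± 0.41, edgeR adjusted p = 0.00146) and was at -0.27 without KO5.2 (edgeR adjusted p = 0.607). NTC lay below Par, but OAS1 reached the limit for low counts in Par and not in NTC, so no test is given for that gap. Its call there was lost without any 1 of the 8 libraries. OAS2 stood at 0.624 and 1.01 CPM in KO1.8, 0.315 and 0.151 in KO5.2, 0.119 and 0.049 in NTC and 0.117 and 0.0591 in Par, with all KO libraries above all controls at very low counts. It passed the limit for low counts through KO1.8 alone, so no test is given for it. OAS3 rose. It stood at 90.7 and 96.5 CPM in KO1.8, 61.6 and 62.5 in KO5.2, 63.5 and 57.3 in NTC and 64.3 and 64.3 in Par, where KO1.8 alone was above the controls (0.29 ± 0.05, edgeR adjusted p = 9.74e-05), and without KO1.8 it was at -0.0099.

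The immunoproteasome subunits gave opposite signs in 501mel. PSMB8 stood at 42.5 and 52.2 CPM in KO1.8, 79.1 and 87 in KO5.2, 100.5 and 89.4 in NTC and 75.9 and 75.2 in Par, where KO1.8 was lowest (-0.43 ± 0.06, edgeR adjusted p = 4.26e-05) and without KO1.8 it was at -0.03. PSMB9 stood at 29.9 and 26 CPM in KO1.8, 33.9 and 27.1 in KO5.2, 34.2 and 30.6 in NTC and 16.7 and 17.6 in Par, where Par alone was low (0.31 ± 0.08, edgeR adjusted p = 0.00399). Against NTC alone PSMB9 was at -0.15 (edgeR adjusted p = 0.195), and NTC was above Par (0.92 ± 0.11, edgeR adjusted p = 8.84e-05).

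The PARP pair also split: PARP9 rose (0.33 ± 0.07, edgeR adjusted p = 0.00123) and PARP14 fell (-0.27 ± 0.05, edgeR adjusted p = 0.000386). Both rested on KO5.2, since without it they were at 0.12 and -0.13. IFI6 was slightly higher (0.17 ± 0.06, edgeR adjusted p = 0.0225), was -0.052 without KO1.8, and was uncalled without KO5.2, NTC or Par replicate 2 (0.13 to 0.16). The 10 members not called were HERC5, HERC6, IFI27, IFI35, the 4 IFIT genes, IRF1 and IRF9, from -0.52 (IFIT2) to 0.10 (HERC5).

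The KO lines of 501mel differed from each other in most members. KO5.2 was lower than KO1.8 in 14 of 29 and higher in 4 (background 41.3% called, 20.7% lower and 20.6% higher), with a median of -0.34, beside 0.00 over all genes. DDX60, OAS1 and OAS2 reached the limit for low counts in KO1.8 alone, IRF9 in KO5.2 alone, and IRF7 and IFI44 in neither line. Among the 23 members that reached it in both, 10 were lower and 4 higher, beside 42.8% of all genes that did (20.1% lower and 22.7% higher). Their median was -0.27, beside 0.02. KO5.2 held the lowest level of the 4 lines for 14 of 29 members, beside 33.1% of all genes, and NTC the highest for 12, beside 27.7%. The largest gaps among members that reached the limit in both lines were in HERC6 (-1.29 ± 0.12, edgeR adjusted p = 1.9e-06) and SAMD9 (-1.24 ± 0.14, edgeR adjusted p = 5.5e-06). For DDX60, OAS1, OAS2 and IRF7 no test of this gap is given. PSMB8 ran the other way (0.81 ± 0.09, edgeR adjusted p = 6.01e-06). Against the controls KO1.8 had 7 members higher and 6 lower (background 40.2%, 20.1% in each direction) and KO5.2 had 5 higher and 12 lower (background 53.5%, 26.5% higher and 27% lower). Among the lower members of KO5.2, DDX60, IFI44, IRF7 and OAS1 reached the limit for low counts in the controls alone. Among the 24 members that reached it on both sides, KO5.2 had 5 higher and 8 lower (background 54.8%, 29% higher and 25.9% lower). On both sides KO1.8 had 6 higher and 5 lower of 25 (background 41.4%, 21.2% higher and 20.2% lower). KO5.2 is also the line with the lower melanocytic marker sum, and the part of that in these differences was not tested.

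By promoter class, 6 of the 7 members higher in 501mel KO lines that have a RefSeq promoter held the ISRE core and 0 held GAS. Of the 9 lower with a promoter, 6 held the ISRE core and 5 held GAS. Of the 9 not called with a promoter, 5 held the ISRE core and 4 held GAS. In SKmel147, 4 of 5 higher, 2 of 4 lower and 14 of 21 not called held the ISRE core, and 1, 1 and 8 of them held GAS. These counts are small and no test was made of them.

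The KO effects of the cell lines were set against each other in 1 joint fit of all 18 libraries. 11 of 36 members had a higher KO effect in SKmel147 than in 501mel and 2 a lower one (background 21.3% called, 11.3% higher and 9.99% lower), with a median of 0.31, beside 0.02 over all genes. 8 of the 36 could be tested in 1 cell line alone and had few or no reads in the other. Over the 28 members tested in both, 11 had a higher effect in SKmel147 and 2 a lower one, beside 26.8% of all genes tested in both (14.0% higher and 12.8% lower), with a median of 0.33, beside 0.01. The 11 still include IFI44 and IRF7, and the 2 include OAS2. In 501mel these reached the limit for low counts on 1 side alone, and a gene that enters that way tends to differ. No count without them was made. SAMD9 differed most surely, by 2.13 ± 0.19 (edgeR adjusted p = 5.59e-07), with a KO effect of 0.33 in SKmel147 and -1.79 in 501mel. STAT2 differed by 0.73 ± 0.10 (edgeR adjusted p = 5.56e-05), with 0.21 in SKmel147 and -0.51 in 501mel. In SAMD9 and STAT2 only the 501mel effect was a call on its own.

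DDX60 differed by 1.91 ± 0.30 (edgeR adjusted p = 0.000215), though the 501mel side rests on KO5.2. IFIT2 differed by 1.37 ± 0.26 (edgeR adjusted p = 0.00117), higher in SKmel147 KO lines and uncalled at -0.52 in 501mel. IFI44, which passed the limit for low counts in 501mel through NTC alone, was also among the calls. It stood at 23.4 and 24.2 CPM in KO1.4, 21.1 and 17.8 in KO1.5 and 23.6 and 24.1 in KO3.20, against 21.6 and 18.7 in NT and 36.7 and 28.9 in Par in SKmel147, where KO lines overlapped NT, and at 0 in all 501mel KO libraries, so its fitted difference depends on the prior count.

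The remaining calls of the difference were PARP14 (0.43), IFIT1 (0.73), IFIH1 (0.40), MX1 (1.4), IRF7 and IFI35 (0.57), and, lower in SKmel147, OAS2 and OAS3 (-0.38). IRF7 and OAS2 had reached the limit for low counts on 1 side alone in 501mel. IFIH1 was called higher in KO lines of both cell lines, and its difference was a call of size. The guides, vectors and driver mutations differ between the cell lines as well, and these cannot be told apart from the cell line.

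**Figure D5:**
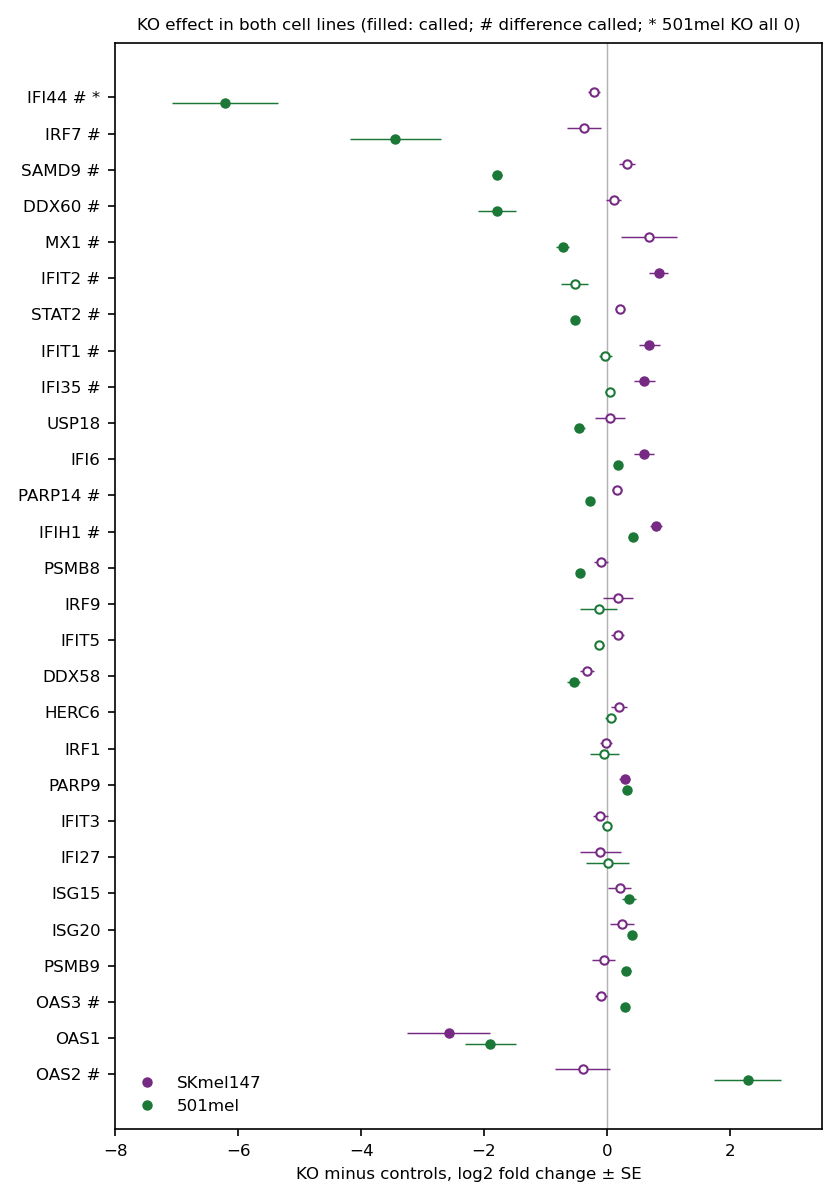
KO effect (log2 fold change ± SE) of the 28 members tested in both cell lines, SKmel147 in purple and 501mel in green; filled points are called, # marks members whose difference between the cell lines was called, and * marks IFI44, at 0 in all 501mel KO libraries. SAMD9 is at 0.33 in SKmel147 and -1.79 in 501mel, and IFIT2 is at 0.84 in SKmel147 and -0.52 in 501mel.

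Upstream of the members, genes of the pathway were looked at from lists of receptors, kinases and transducers, sensors and adaptors, and restraints. Their counts are read against all genes tested, of which 8.07% were higher and 9.6% lower in SKmel147 KO lines, and 24.7% higher and 26.5% lower in 501mel KO lines. In SKmel147 KO lines 1 of 5 receptors rose, IL10RB, the shared chain of the type III receptor (0.53 ± 0.10, edgeR adjusted p = 0.00419), and 0 fell. Of 5 kinases and transducers STAT3 alone was called (0.29 ± 0.07, edgeR adjusted p = 0.0145). NT against Par in STAT3 was larger, at -0.37 (edgeR adjusted p = 0.0593), and 0 of the 5 were called higher against Par alone. 2 of 12 sensors and adaptors fell, the DNA sensors MB21D1 (cGAS, -0.70 ± 0.09, edgeR adjusted p = 0.000261) and IFI16 (-0.33 ± 0.09, edgeR adjusted p = 0.026), and 0 rose. Of 9 restraints IRF2, a repressor of ISRE-driven genes, rose (0.34 ± 0.09, edgeR adjusted p = 0.0222) and its cofactor IRF2BP1 fell (-0.52 ± 0.16, edgeR adjusted p = 0.0427). NT against Par in IRF2BP1 was -0.59 (edgeR adjusted p = 0.16), larger than its KO difference. The IFI16, IRF2 and IRF2BP1 calls were lost without any 1 of 6, 6 and 8 of the 10 libraries.

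In 501mel KO lines 2 of 5 receptors fell, IL10RB (-0.40 ± 0.09, edgeR adjusted p = 0.00153) and IFNGR2 (-0.12 ± 0.05, edgeR adjusted p = 0.0359), the last lost without any 1 of 6 of the 8 libraries. The kinase TYK2 rose (0.23 ± 0.05, edgeR adjusted p = 0.000923) and JAK2 was called lower (-0.34 ± 0.09, edgeR adjusted p = 0.00471). JAK2 was also lower in NTC than in Par (-0.61 ± 0.12, edgeR adjusted p = 0.00375), and 0 of the 5 kinases and transducers were called lower against NTC alone. Of 11 sensors and adaptors 2 rose and 6 fell. MAVS, the mitochondrial adaptor of both RNA sensors, rose (0.50 ± 0.05, edgeR adjusted p = 2.78e-06), and was lower in NTC than in Par (-0.24, edgeR adjusted p = 0.0492). The endosomal sensor TLR3 (-1.07 ± 0.16, edgeR adjusted p = 6.54e-05) and the kinase TBK1 (-0.36 ± 0.05, edgeR adjusted p = 2.44e-05) were among those that fell. Of 7 restraints PIAS1 rose (0.23 ± 0.06, edgeR adjusted p = 0.00422) and TRIM21 fell (-0.47 ± 0.09, edgeR adjusted p = 0.00074).

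The tests above take the library as the unit, and each KO effect averages 3 or 2 lines. With counts summed per line and the line as the replicate, 0 members passed adjustment in either cell line or in their difference (edgeR quasi-likelihood test). Few genes of any kind passed it, 13 of 19729 in SKmel147, 0 of 17114 in 501mel and 3 of 21374 for the difference. At an unadjusted p under 0.05 the counts were 6 of 36 in SKmel147, 5 of 29 in 501mel and 7 of 38 for the difference, and 12.7%, 13.8% and 10.3% of all genes reached that. With limma-voom and the line as a random block, 3 members passed in SKmel147, IFIH1 (adjusted p = 0.0205), SAMD9L (adjusted p = 0.0192) and GBP1 (adjusted p = 0.0111), and 2 in 501mel, SAMD9 (adjusted p = 0.0072) and IFI44, the gene that entered through NTC alone. No share of all genes is set beside these counts of 3 and 2.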

How the data were processed

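Polyadenylated RNA from 18 libraries of 2 human melanoma cell lines had been sequenced. The authors deposited raw counts per gene symbol, 1 table per cell line. The submitters' processing notes name STAR 2.6.0, featureCounts and builds GRCh37 and hg19; the sources used here give no strand or multi-mapping setting. From the counts, edgeR 4.0.16 (R 4.3.3) was run per cell line with TMM scaling, its low-count filter (18361 and 16230 genes kept) and 1 coefficient per line, and jointly over 18 libraries (19518 genes). KO and control means weight lines equally. The quasi-likelihood test was used, with Benjamini-Hochberg adjustment over all genes and a threshold of 0.05. RPKM uses exon lengths from GENCODE 29, for 35428 matched symbols. The same code was tested on simulated data. Alternatives used DESeq2 1.42.0, limma 3.58.1, other filters, corrections and omissions.

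Members and lists were chosen with earlier results of these data known. Shown in full are members called against the controls, in every KO line and against each control alone with 1 sign; members called with opposite signs in KO lines; the 5 largest control gaps; the 5 smallest p of the difference between cell lines; and STAT2, IRF9, IRF1, IRF7 and ARID2. Other pathway genes are named by smallest p, up to 3 a list. Replicate numbers are not said to mark a shared culture or day. Deviations of same-numbered libraries did not share 1 sign across lines (correlations of -0.267 to 0.324), so no block was used in the main fits. They were positive among Par, NT and KO1.5 of SKmel147 (0.164 to 0.324), so some shared deviation is possible there. Counts with a replicate block are given below. Chi-square per degree of freedom between libraries of a line was 2.51 to 39.2, so none differed by sampling noise alone. 0 columns were left unused.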

Additional observations from a re-analysis of the deposited data

Results flagged for a closer look

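The KO effect differed between the cell lines, by the interaction test of the joint fit (edgeR quasi-likelihood, adjusted over all 19518 genes), in 13 of 36 members. Values are log2 KO effect in SKmel147 minus that in 501mel. SAMD9 differed by 2.13, STAT2 by 0.73, DDX60 by 1.91, IFIT2 by 1.37 and PARP14 by 0.43. IFI44 differed by a fitted 6.34, a value that depends on the prior count because its 501mel KO libraries are all at 0. OAS3 differed by -0.38. These 7 were called without any 1 library. IFIT1 differed by 0.73 and was uncalled without KO1.8 replicate 1, NTC replicate 2 or Par replicate 1 of 501mel (0.61 to 0.68). MX1 differed by 1.4 and was uncalled without KO1.4 replicate 2, KO1.5 replicate 2 or NT replicate 1 of SKmel147 (1.10 to 1.34). OAS2 differed by -2.69 and was uncalled without any 1 of 3 (KO5.2 replicate 1 or NTC replicate 2 of 501mel, or NT replicate 2 of SKmel147, at -2.39, -2.44 and -2.10). IFIH1 differed by 0.40 and was uncalled without KO1.8 replicate 2, KO5.2 replicate 2, NTC replicate 1 or Par replicate 2 of 501mel (0.37 to 0.38). IRF7 differed by 3.24 and was uncalled without any 1 of 5 libraries of 501mel (2.93 to 3.25), and IFI35 by 0.57, uncalled without any 1 of 12 of the 18 (0.45 to 0.60). IFI44, IRF7 and OAS2 reached the limit for low counts on 1 side alone in 501mel.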

How the results depend on the processing

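The number of members called moved by more than 1.5 times from the reported count in these cases. These counts are of members alone, and no share of all genes is set beside them here. For SKmel147 KO lines (11 reported) it was 17 with a GC and length correction, 7 without KO1.4, 3 with voom and a line block and 0 with the line as the replicate. For 501mel KO lines (19 reported) it was 2 with voom and 0 with the line as the replicate, as it was for the difference between cell lines (13 reported). For KO1.5 against KO1.4 (0 reported) it was 1 with the DESeq2 Wald test, 3 without a filter and 5 with the GC correction. For KO3.20 against KO1.4 (0 reported) it was 1 without a filter and 1 with the GC correction, and for KO3.20 against KO1.5 (5 reported) 8 with it. Calls against both controls alone were 7 in SKmel147 with the GC correction (4 reported) and 9 in 501mel with the Wald test (14 reported). 501mel NTC against Par gave 4 with the Wald test (8 reported).

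Among values called as reported or under the alternative, 7 changed sign. OAS3 was at 0.77 in SKmel147 against NT alone and PSMB9 at -0.15 in 501mel against NTC alone. Without KO1.8, IFI6 was at -0.052, OAS3 at -0.0099, HERC6 at -0.58 and JAK1 at 0.17, and without KO5.2 USP18 was at 0.020, all in 501mel.

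Leaving out 1 library gave 7 to 11 calls for SKmel147 KO lines (7 without NT replicate 1, KO1.5 replicate 2 or either KO3.20 replicate). NT against Par gave 5 to 10 (5 without NT replicate 1 or Par replicate 2, 8 without NT replicate 2 or Par replicate 1). KO1.5 against KO1.4 gave 0 to 2 (1 without Par replicate 1, 2 without Par replicate 2), KO3.20 against KO1.4 0 to 1 (1 without either Par replicate) and KO3.20 against KO1.5 1 to 5. Calls in every KO line were 2 to 3 in SKmel147 and 5 to 8 in 501mel, and calls against both controls alone 2 to 5 (2 without Par replicate 2) and 9 to 15 (9 without Par replicate 1). The 501mel KO lines gave 18 to 20, NTC against Par 3 to 7 (3 without NTC or Par replicate 1, 4 without NTC or Par replicate 2) and KO5.2 against KO1.8 14 to 18. The difference between cell lines gave 10 to 16 and the control baseline 32 to 36. The cause of these moves was not tested.

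Same-numbered libraries are not paired by the labels. With the replicate block the counts were 11 for SKmel147 KO lines, 11 for NT against Par, 20 for 501mel KO lines, 10 for NTC against Par, 19 for KO5.2 against KO1.8, 13 for the difference and 32 for the baseline. For the pairs of SKmel147 KO lines they were 0, 0 and 5, for every KO line 3 and 8, and against both controls 4 and 15.

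OAS1, OAS2, IRF7 and IFI44L lie near or under 1 CPM in these libraries, where counting error is large.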
